A study of Mus musculus with 9 samples.

Results

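The genes described here are 10 genes of bone morphogenetic protein (BMP) and activin signalling: the ligand genes Bmp2, Bmp4, Bmp7 and Inhba, the antagonist genes Fst and Grem1, and the response genes Id1, Id2, Id3 and Smad6. They were chosen by name, with earlier results of these data known. All probe sets that the platform annotation assigns to 1 of these symbols alone were taken. This gave 16 probe sets for the 10 genes, out of 18193 genes with a single-gene probe set. RNA came from the mouse pancreatic cancer line 170#3, of mixed C57BL6 x FVB x 129Sv background, grown in monolayer in DMEM with serum. One group was stably transfected with beta-catenin, the co-activator of the Wnt pathway. A second was stably transfected with ICAT, a small protein that keeps beta-catenin from TCF factors, and the third was the control transfection. Each group had 3 arrays, 9 in all. Neither the promoter driving the transgenes nor whether the lines were pools or single clones is stated in the labels. Values are log2 expression as deposited, and a difference of 1 on this scale is 2-fold.

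BMPs are secreted dimers that bind type I and type II receptor kinases, which phosphorylate Smad1, Smad5 and Smad9. These enter the nucleus with Smad4 and switch on a small set of direct targets, of which the Id genes and the inhibitory Smad genes are the usual readouts. Id proteins have a helix-loop-helix but no basic region, so they pair with E proteins and hold them off DNA. Inhba encodes the beta A chain of activin, which signals through Smad2 and Smad3. Follistatin, the product of Fst, binds activins tightly and some BMPs more weakly, and gremlin 1, the product of Grem1, binds BMP2, BMP4 and BMP7. In the pancreas these ligands take part in development, and in pancreatic cancer Id proteins are often raised.

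Array medians lay between 6.21 and 6.29, and arrays of a group correlated across genes at 0.997 or higher for beta-catenin, 0.9908 or higher for ICAT and 0.998 or higher for control cells. The median SD of a gene between replicates was 0.0746 in beta-catenin, 0.121 in ICAT and 0.0567 in control cells, so replicate error was largest in ICAT cells. Of the transfected genes, Ctnnb1 was at 12.88 in beta-catenin, 12.88 in ICAT and 12.68 in control cells (adjusted p = 0.0353 for beta-catenin against control), and Ctnnbip1, the gene of ICAT, was at 8.78 in beta-catenin, 8.79 in ICAT and 8.64 in control cells. These 3′ probe sets need not see a transgene, so they do not check the labels. The number of arrays limits the precision, and the labels call the samples biological replicates without saying whether they came from separate transfections. The epithelial gene Cdh1 lay under 5 in every group and the ductal keratin gene Krt7 between 4.84 and 5.15 on all arrays, while Epcam lay between 7.34 and 7.65. The ductal factor gene Sox9 lay at 9.01 in beta-catenin, 9.54 in ICAT and 9.01 in control cells. Of 7 tested ductal and epithelial markers none was called in beta-catenin cells, and Sox9 (0.53), Krt8 (0.89), Krt18 (1.28) and Krt19 (0.28) were called higher in ICAT than in control cells. The pan-immune gene Ptprc and the endothelial gene Cdh5 lay under 5 in every group. The other 6 immune and endothelial markers on the array were tested and had higher means. These ran from Pecam1 (5.13, 5.17 and 5.19 in beta-catenin, ICAT and control cells) to Kdr (7.50, 7.44 and 7.41). Of the 6, Cd68 was called lower in beta-catenin than in control cells (-0.55), and none was called in ICAT against control cells. Of 8 tested fibroblast markers 3 were higher and 1 lower in beta-catenin than in control cells, and 6 were higher and none lower in ICAT than in control cells. The log2 of the summed level of all 10 was 12.23 to 12.43 on the beta-catenin arrays, 14.03 to 14.08 on the ICAT arrays and 12.63 to 12.68 on the control arrays. Lum, Fap and Thy1 had means under 5 in every group. The brightest fibroblast marker, Col1a2, averaged 10.78 in beta-catenin, 13.62 in ICAT and 12.17 in control cells and weighs most in the sum. The sum was lowest on the beta-catenin arrays although Col1a1 (1.14), Pdgfra (2.04) and Acta2 (1.31) were called higher there than in control cells. The same sum was 10.16 to 10.21 on beta-catenin, 10.61 to 10.88 on ICAT and 10.18 to 10.25 on control arrays for ductal and epithelial markers. For acinar markers it was 10.02 to 10.08 on beta-catenin, 9.57 to 9.70 on ICAT and 9.45 to 9.51 on control arrays. The brightest acinar marker, Cela1, averaged 9.35 in beta-catenin, 8.54 in ICAT and 8.14 in control cells and weighs most in that sum. Of 5 tested acinar markers, Cela1 (1.21) was called higher and Ctrb1 (-0.22) lower in beta-catenin than in control cells. In ICAT cells only Cela1 (0.40) was called against control. For immune and endothelial markers the sum was 9.03 to 9.163 on beta-catenin, 9.12 to 9.27 on ICAT and 9.156 to 9.25 on control arrays. For endocrine markers it was 8.40 to 8.496, 8.27 to 8.58 and 8.47 to 8.58 on the same arrays. Both sums overlapped between each pair of groups. The part of these markers in the BMP pathway differences was not tested. In such bulk samples fewer cells of a type and less RNA per cell cannot be told apart.

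A gene was called where its limma test had a Benjamini-Hochberg adjusted p under 0.05 over the 15235 genes that reached log2 5 on at least 3 arrays. All 10 genes entered that test, each by its brightest probe set. Between beta-catenin and control cells 3 of the 10 rose (Id2, Id3 and Smad6), 4 fell (Bmp2, Bmp4, Fst and Grem1) and 3 were not called. Of all tested genes 34.9 percent were called there, 19.6 percent higher and 15.4 percent lower, and the median difference was -0.03 over the 10 genes and -0.03 over all genes. Between ICAT and control cells 1 rose (Smad6) and 4 fell (Bmp2, Fst, Grem1 and Id1), against a background of 37.2 percent called, 18.7 percent higher and 18.5 percent lower, with medians of -0.61 over the 10 genes and -0.01 over all genes. Between beta-catenin and ICAT cells 4 were higher (all 3 Id genes and Smad6) and 3 lower (Bmp2, Bmp4 and Fst), against 40.4 percent of genes called, 22.5 percent higher and 17.9 percent lower, with medians of 0.02 and -0.01. The arrays of the groups did not overlap for 10 of the 10 genes between beta-catenin and control cells, against 54.1 percent of all tested genes. This held for 5 of the 10 between ICAT and control cells, against 46.2 percent, and for 7 of the 10 between beta-catenin and ICAT cells, against 47.6 percent. Called changes of at least 2-fold were fewer in general, at 4.62 percent of genes for beta-catenin against control, and 5 of the 10 genes reached that size. For ICAT against control 2 of the 10 reached it, against 2.94 percent of genes, and for beta-catenin against ICAT 6 of the 10, against 3.97 percent. Since the 10 genes were chosen with earlier results of these data known, these shares are no independent test.

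**Figure D1:**
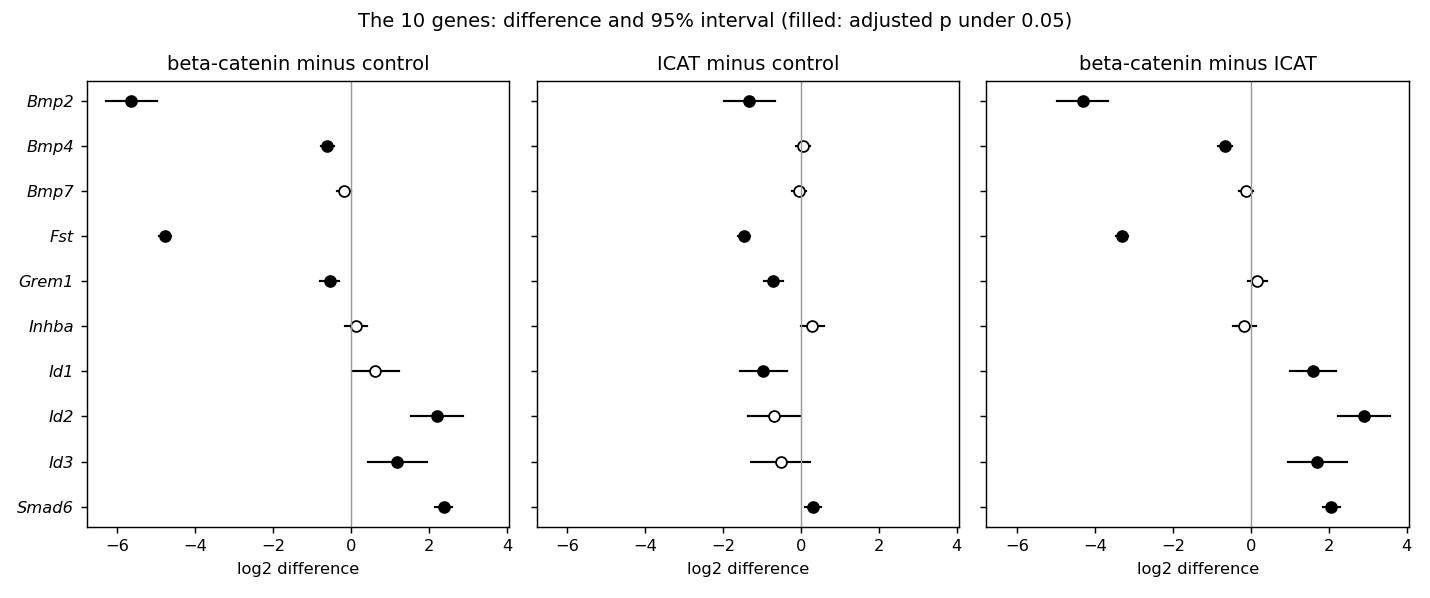
Differences in log2 expression of the 10 genes (points) with 95% intervals (bars) for beta-catenin minus control, ICAT minus control and beta-catenin minus ICAT; filled points passed an adjusted p of 0.05. Bmp2 and Fst lie far to the left in beta-catenin cells (fitted values -5.64 and -4.78, with Bmp2 near the limit of 5 there), while Id2 and Smad6 lie to the right (2.21 and 2.37).

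Of the 16 probe sets 13 were tested. Between beta-catenin and control cells 5 of them were higher and 5 lower (32.9 percent of all 27576 tested probe sets were called), between ICAT and control cells 1 was higher and 5 lower (35.4 percent), and between beta-catenin and ICAT cells 6 were higher and 4 lower (38.5 percent).

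Among the ligands Bmp2 was strongly lower in beta-catenin cells. BMP2 is a potent activator of Smad1 and Smad5 signalling and its gene is itself responsive to Wnt and BMP signals in several tissues. Bmp2 expression was 5.53, 5.15 and 4.97 on the beta-catenin arrays, 8.65, 10.16 and 9.79 on the ICAT arrays and 10.84, 10.90 and 10.85 on the control arrays. The 3 groups did not overlap, and 1 beta-catenin array lay under the limit of 5 that was set for dim values. Since the beta-catenin arrays lay near that limit, folds against them are lower bounds, with values under 5 set to 5. Bmp2 was at least 49.6-fold lower in beta-catenin than in control cells (limma adjusted p = 8.35e-08). It was 2.50-fold lower in ICAT than in control cells (-1.32, interval -1.98 to -0.67, adjusted p = 0.00433) and at least 19.8-fold lower in beta-catenin than in ICAT cells (adjusted p = 8.96e-07). The ICAT decrease was uneven, since replicate 1 lay at -2.21 from the control mean and replicate 2 at -0.70. Without ICAT replicate 1 the log2 difference was -0.88 (adjusted p = 0.00108).

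Bmp4, which encodes the closest relative of BMP2, fell in beta-catenin cells, against both control and ICAT cells. Its values were 7.75, 7.70 and 7.62 on the beta-catenin arrays, 8.44, 8.22 and 8.41 on the ICAT arrays and 8.23, 8.43 and 8.24 on the control arrays. All beta-catenin arrays lay below all others, and the ICAT and control arrays overlapped. Bmp4 was 1.53-fold lower in beta-catenin than in control cells (-0.61, adjusted p = 0.000105) and 1.59-fold lower than in ICAT cells (adjusted p = 5.84e-05). ICAT cells differed from control cells by 0.05 (interval -0.12 to 0.23, adjusted p = 0.669).

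Bmp7, a BMP of another subgroup, and Inhba were not called in any of the 3 comparisons in the model of all 9 arrays. The brightest Bmp7 probe set read 6.94, 6.66 and 6.83 on the beta-catenin arrays, 7.02, 6.96 and 6.85 on the ICAT arrays and 7.02, 7.02 and 6.95 on the control arrays. The beta-catenin arrays lay just below the control arrays, with a difference of -0.18 (interval -0.36 to -0.01, adjusted p = 0.1). It was called with array weights (-0.26, adjusted p = 0.0033), after a second quantile normalization (-0.21, adjusted p = 0.049) and without beta-catenin replicate 1 (-0.25, adjusted p = 0.0428), and was -0.01 with the mean of its probe sets. Its other probe sets were below log2 5 on every array and were not tested, so only the brightest measured this gene. Inhba read 9.34, 9.48 and 9.44 on the beta-catenin arrays, 9.21, 9.72 and 9.84 on the ICAT arrays and 9.32, 9.29 and 9.28 on the control arrays. ICAT replicate 1 lay below the controls and the other ICAT arrays above them. The difference was 0.13 in beta-catenin cells (interval -0.16 to 0.41, adjusted p = 0.505) and 0.29 in ICAT cells (interval 0.01 to 0.58, adjusted p = 0.106). Without ICAT replicate 1 Inhba was higher in ICAT than in control cells (0.48, adjusted p = 0.000395) and lower in beta-catenin than in ICAT cells (-0.36, adjusted p = 0.00212). The ICAT increase also passed after a second quantile normalization (0.34, adjusted p = 0.0484). The second Inhba probe set stayed between 4.66 and 5.21 and was not tested.

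The ligand list held 15 further genes that were tested, among them Bmp6, Bmp8a, Gdf11, Nodal and Inhbb, and none was called in any comparison by limma at an adjusted p of 0.05. At an unadjusted p under 0.05 the counts were 0 for beta-catenin against control, 0 for ICAT against control and 0 for beta-catenin against ICAT. The activin beta B gene Inhbb, the brightest of the 15, lay at 7.65 in beta-catenin, 7.73 in ICAT and 7.74 in control cells. Several lay near the limit of 5, where differences are compressed. In beta-catenin, ICAT and control cells Gdf5 averaged 5.05, 5.03 and 4.98, Bmp6 5.03, 5.16 and 5.09, and Bmp8b 5.21, 5.22 and 5.25. For such dim genes the missing call does not show that an expressed ligand stayed unchanged.

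**Figure D2:**
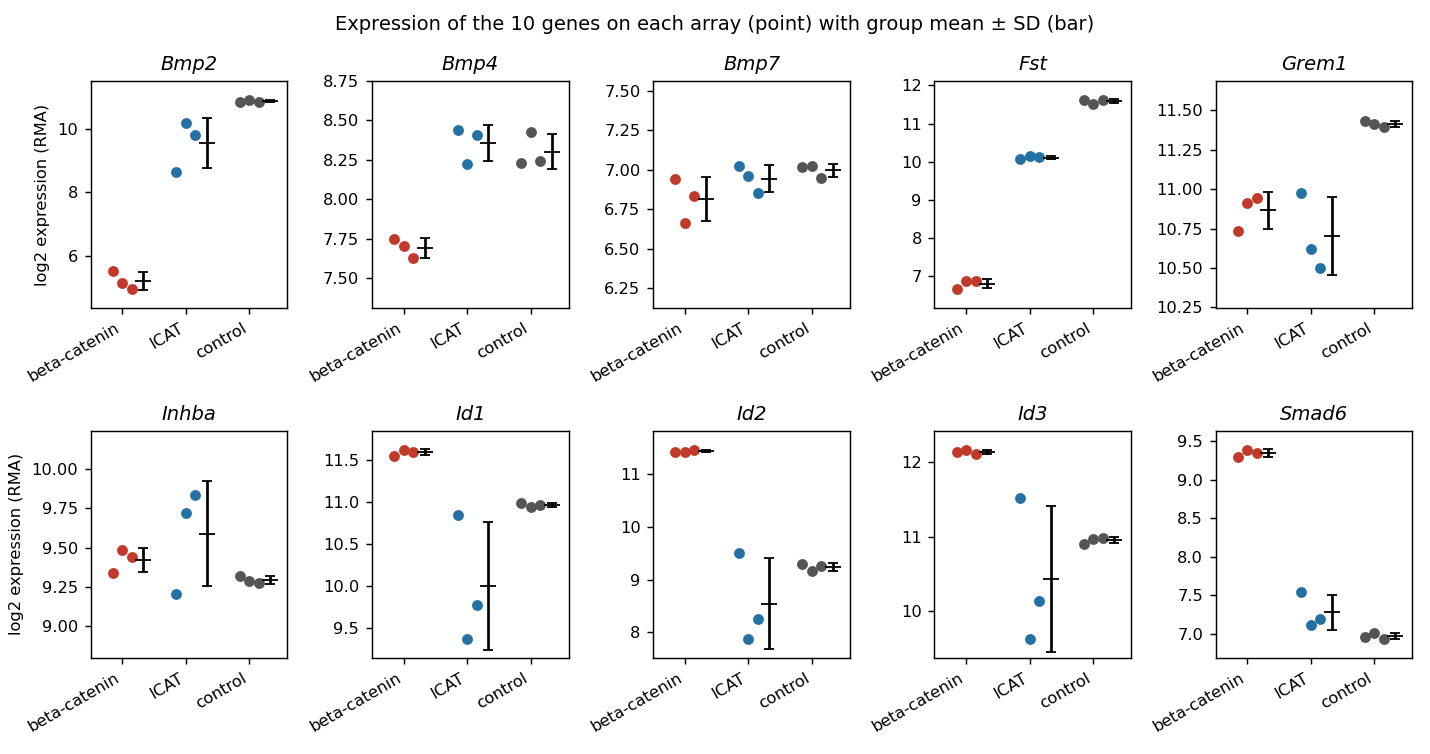
Log2 expression (RMA) of the brightest probe set of each of the 10 genes on each array (points), with the mean ± SD of the 3 arrays of a group (bars), in beta-catenin, ICAT and control cells; each panel has its own axis. Bmp2, Bmp4 and Fst are lowest in beta-catenin cells, Id1, Id2, Id3 and Smad6 are highest there, and the ICAT arrays of Id1, Id2 and Id3 spread widely.

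Of the antagonist genes, Fst fell in both beta-catenin and ICAT cells, and further in beta-catenin cells. The brightest Fst probe set read 6.67, 6.87 and 6.87 on the beta-catenin arrays, 10.07, 10.14 and 10.13 on the ICAT arrays and 11.62, 11.52 and 11.61 on the control arrays. The 3 groups were far apart relative to their spread, with SDs of 0.115 for beta-catenin, 0.0406 for ICAT and 0.0558 for control arrays. Fst was 27.5-fold lower in beta-catenin than in control cells (-4.78, interval -4.93 to -4.62, adjusted p = 1.34e-11). It was 2.77-fold lower in ICAT than in control cells (-1.47, adjusted p = 1.77e-07) and 9.91-fold lower in beta-catenin than in ICAT cells (adjusted p = 3.81e-10). The second Fst probe set showed the same order, with 18.9-fold lower expression in beta-catenin and 2.68-fold lower expression in ICAT than in control cells (adjusted p = 1.83e-11 and 3.09e-07 over 27576 probe sets).

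Grem1 fell in both beta-catenin and ICAT cells. It read 10.73, 10.91 and 10.95 on the beta-catenin arrays, 10.98, 10.62 and 10.50 on the ICAT arrays and 11.43, 11.42 and 11.39 on the control arrays. Every beta-catenin and ICAT array lay below every control array, and the beta-catenin and ICAT arrays overlapped. Grem1 was 1.46-fold lower in beta-catenin than in control cells (-0.55, adjusted p = 0.00208) and 1.64-fold lower in ICAT than in control cells (-0.71, adjusted p = 0.000366). Beta-catenin and ICAT cells differed by 0.16 (interval -0.08 to 0.40, adjusted p = 0.267). Without ICAT replicate 1 the difference was 0.30 and was called (adjusted p = 0.0103).

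The other antagonist genes went both ways. Besides Fst and Grem1, 15 were tested. Against control, beta-catenin cells had 4 of them higher and 4 lower, and ICAT cells 3 higher and 1 lower. Of all tested genes 34.9 and 37.2 percent were called in these 2 comparisons. Bmper, whose product binds BMPs outside the cell, was 3.14-fold lower in beta-catenin than in control cells (7.19, 7.45 and 7.52 on beta-catenin arrays, 9.05, 9.02 and 9.04 on control arrays, adjusted p = 1.57e-06). In ICAT cells Bmper differed from control by -0.02 (interval -0.30 to 0.26, adjusted p = 0.924). Fstl1, which encodes a secreted follistatin-like glycoprotein, went the other way to Fst and was 4.23-fold higher in beta-catenin and 3.85-fold higher in ICAT than in control cells (adjusted p = 2.84e-07 and 1.34e-06). Its second probe set was higher as well, by 2.13 and 1.90. Bambi, a decoy receptor gene that BMP signalling itself induces, was 1.80-fold higher in beta-catenin than in control cells (adjusted p = 6.58e-06) and differed by 0.01 in ICAT cells (adjusted p = 0.91). The serine protease gene Htra1 was 1.52-fold lower in beta-catenin than in control cells (adjusted p = 0.0288), and it lay 1.43-fold above control in ICAT cells without passing the test (adjusted p = 0.0536). Crim1, whose product tethers BMPs at the cell surface, was 1.35-fold higher in beta-catenin and 1.38-fold lower in ICAT than in control cells (adjusted p = 0.0364 and 0.0252). Nbl1, of the gremlin family, rose 1.79-fold in ICAT cells (adjusted p = 0.00724). Twsg1, which encodes a BMP-binding protein, was 1.34-fold higher in ICAT than in control cells by its brightest probe set (adjusted p = 0.000548), but a dimmer one was lower (-0.34, adjusted p = 0.00511 over probe sets). Noggin (Nog) had a mean under 5 in every group and was not tested.

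**Figure D3:**
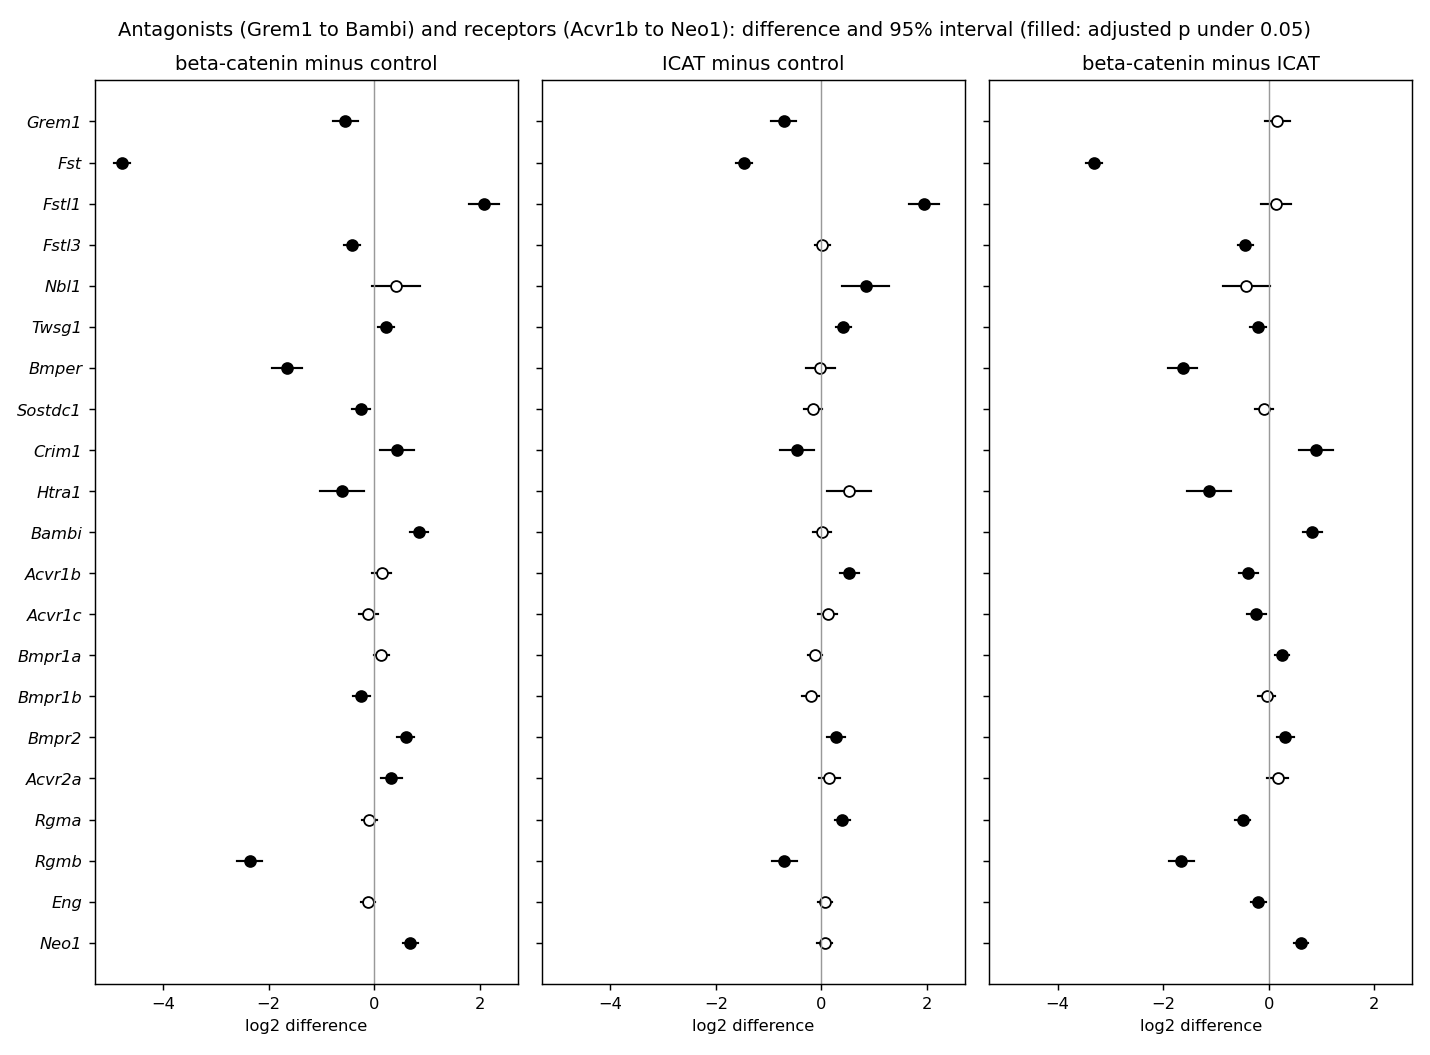
Differences in log2 expression (points) with 95% intervals (bars) for antagonist genes (Grem1 to Bambi) and receptor and co-receptor genes (Acvr1b to Neo1) that were called in at least 1 comparison; filled points passed an adjusted p of 0.05. Fst, Bmper and Rgmb lie furthest to the left in beta-catenin cells (-4.78, -1.65 and -2.36), and Fstl1 is high in both beta-catenin and ICAT cells (2.08 and 1.94).

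Smad6 and Id2 were among the clearest increases in beta-catenin cells. Smad6 encodes an inhibitory Smad that blocks BMP receptors and is induced by BMP signalling as negative feedback. It read 9.30, 9.39 and 9.35 on the beta-catenin arrays, 7.54, 7.12 and 7.19 on the ICAT arrays and 6.96, 7.02 and 6.94 on the control arrays. The groups did not overlap, and the ICAT arrays lay much nearer to control. Smad6 was 5.17-fold higher in beta-catenin than in control cells (2.37, interval 2.16 to 2.59, adjusted p = 1.35e-08) and 4.18-fold higher than in ICAT cells (adjusted p = 5.53e-08). In ICAT cells it was 1.24-fold higher than in control cells (0.31, adjusted p = 0.027), and this small increase did not pass without ICAT replicate 1 (0.18, adjusted p = 0.0535) or without any 1 control array (adjusted p from 0.0522 to 0.0835), nor with the 6 ICAT and control arrays alone (adjusted p = 0.0536) or after a second quantile normalization (adjusted p = 0.0645).

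RefSeq promoter windows (assembly GRCm38.p6, 250 bases before to 50 after the gene start) were at hand for 6 of the 10 genes. Those of Smad6, Id2 and Id3, the genes that rose in beta-catenin cells, are printed 5′ to 3′ on the gene's strand, with motif matches in capitals. Smad6 lies at chr9:64022010-64022309 on the minus strand, Id2 at chr12:25096043-25096342 on the minus strand and Id3 at chr4:136143572-136143871 on the plus strand.
Smad6: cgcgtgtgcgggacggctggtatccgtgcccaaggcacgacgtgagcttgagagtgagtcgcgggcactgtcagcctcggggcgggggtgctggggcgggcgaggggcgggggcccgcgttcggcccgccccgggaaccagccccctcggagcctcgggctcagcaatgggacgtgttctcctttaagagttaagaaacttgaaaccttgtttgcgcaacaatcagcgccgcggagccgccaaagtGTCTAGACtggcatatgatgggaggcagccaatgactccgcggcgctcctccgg
Id2: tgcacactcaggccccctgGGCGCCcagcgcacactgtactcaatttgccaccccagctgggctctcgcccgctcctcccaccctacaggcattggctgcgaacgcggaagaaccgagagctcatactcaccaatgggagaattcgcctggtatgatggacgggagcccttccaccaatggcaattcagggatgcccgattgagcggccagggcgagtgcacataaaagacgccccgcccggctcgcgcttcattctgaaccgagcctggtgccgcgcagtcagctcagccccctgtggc
Id3: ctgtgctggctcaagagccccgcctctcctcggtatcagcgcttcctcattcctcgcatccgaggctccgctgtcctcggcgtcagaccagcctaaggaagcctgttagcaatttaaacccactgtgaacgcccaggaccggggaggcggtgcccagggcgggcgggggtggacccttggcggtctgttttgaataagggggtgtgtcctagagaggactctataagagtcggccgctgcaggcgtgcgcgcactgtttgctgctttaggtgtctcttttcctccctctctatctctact
Both strands were searched for GTCTAGAC, a palindromic Smad element, for GGCGCC, a GC-rich element bound by BMP-activated Smads, and for CTTTGAT, a TCF/LEF element, and no matches overlapped. The Smad6 window held GTCTAGAC from 4 bases before to 4 bases after the gene start, a motif found in 0.213 percent of 32851 windows of that length. The Id2 window held GGCGCC, starting 231 bases before the start, as did the Grem1 window at 78 bases, and 11.9 percent of all windows hold it. No match to any of the 3 motifs lay in the windows of Id3, Bmp4 or Inhba, and CTTTGAT, present in 3.73 percent of windows, was in none of the 6. A match describes letters only, and factor binding was not measured.

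The Id genes were high in beta-catenin cells with little spread between arrays. Id2 read 11.43, 11.43 and 11.47 on the beta-catenin arrays, 9.51, 7.88 and 8.24 on the ICAT arrays and 9.29, 9.16 and 9.25 on the control arrays. All beta-catenin arrays lay far above the others, and the ICAT arrays fell on both sides of control. Id2 was 4.62-fold higher in beta-catenin than in control cells (2.21, interval 1.54 to 2.88, adjusted p = 0.000157) and 7.47-fold higher than in ICAT cells (adjusted p = 2.15e-05). In ICAT cells its difference from control was -0.69 (interval -1.36 to -0.02, adjusted p = 0.103). Both other Id2 probe sets were higher in beta-catenin than in control cells too, 3.98-fold and 1.76-fold (adjusted p = 1.81e-05 and 0.00262 over probe sets).

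Id3 read 12.14, 12.17 and 12.11 on the beta-catenin arrays, 11.52, 9.63 and 10.14 on the ICAT arrays and 10.91, 10.97 and 10.99 on the control arrays. All beta-catenin arrays lay above all others, and the ICAT arrays lay on both sides of control. It was 2.28-fold higher in beta-catenin than in control cells (1.19, interval 0.43 to 1.95, adjusted p = 0.0192) and 3.27-fold higher than in ICAT cells (adjusted p = 0.002). In ICAT cells the difference from control was -0.52 (interval -1.28 to 0.24, adjusted p = 0.286). The Id3 call against control was lost with a trended, robust prior (adjusted p = 0.0935), without beta-catenin replicate 2 (adjusted p = 0.0516) and without control replicate 1 or 2 (adjusted p = 0.0555 and 0.0503). With the 6 beta-catenin and control arrays alone it passed (adjusted p = 4.6e-07).

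Id1 read 11.55, 11.62 and 11.60 on the beta-catenin arrays, 10.85, 9.38 and 9.77 on the ICAT arrays and 10.996, 10.95 and 10.96 on the control arrays. The 3 groups did not overlap, with beta-catenin highest and ICAT lowest. Id1 was 3.02-fold higher in beta-catenin than in ICAT cells (1.59, adjusted p = 0.000652) and 1.96-fold lower in ICAT than in control cells (-0.97, adjusted p = 0.015). That ICAT decrease did not pass without ICAT replicate 2 or 3 (adjusted p = 0.0591 and 0.0593) or with a trended, robust prior (adjusted p = 0.0751). In beta-catenin cells Id1 lay 1.54-fold above control without passing in the model of all 9 arrays (0.62, interval 0.03 to 1.22, adjusted p = 0.101). It passed when only the 6 beta-catenin and control arrays were fitted (adjusted p = 1.25e-05), with array weights (adjusted p = 0.00395), and without ICAT replicate 1 or 2 (adjusted p = 0.000276 and 0.0444).

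Most other tested BMP-responsive genes were also higher in beta-catenin cells. Of 13 tested genes of that list, Id1, Id2, Id3 and Smad6 included, 10 rose and none fell there, against a background of 19.6 percent of all genes called higher. The median difference was 0.85 over the list and -0.03 over all genes. Without the 4 genes described above, 7 of 9 rose and the median was 0.56. In ICAT cells 3 of the 13 were called higher and 2 lower, against 18.7 percent called higher, with a median of -0.02. Between beta-catenin and ICAT cells 11 of 13 were higher and none lower (22.5 percent of all genes were called higher), with a median of 0.83. The list was chosen with earlier results of these data known. Smad phosphorylation was not measured, and the part of BMP signalling in these differences was not tested.

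Id4, the fourth Id gene, read 9.64, 9.63 and 9.66 on the beta-catenin arrays, 8.46, 7.99 and 8.32 on the ICAT arrays and 7.78, 7.63 and 7.77 on the control arrays. It was 3.77-fold higher in beta-catenin and 1.45-fold higher in ICAT than in control cells (adjusted p = 9.87e-08 and 0.00176), and all beta-catenin and ICAT arrays lay above all control arrays. Atoh8, a bHLH factor gene induced by BMPs, was 2.67-fold higher in beta-catenin than in control cells (8.40, 8.54 and 8.67 against 7.02, 7.14 and 7.21, adjusted p = 0.000302). The homeobox gene Msx1 was 1.93-fold higher in beta-catenin and 1.401-fold higher in ICAT than in control cells (adjusted p = 1.01e-05 and 0.00156), and its dimmer probe set gave 0.30 and 0.19, the second without passing (adjusted p = 0.151). Smad7, the second inhibitory Smad gene, rose 1.35-fold in beta-catenin cells and fell 1.21-fold in ICAT cells (adjusted p = 0.000161 and 0.00432), and its other probe set gave 0.42 and -0.37. The receptor-activated Smad gene Smad9, itself a BMP target, was 1.47-fold higher in beta-catenin than in control cells (adjusted p = 0.00599). Its values lay near the limit of 5, at 5.56, 6.15 and 5.75 on beta-catenin and 5.35, 5.26 and 5.18 on control arrays. The Notch and BMP target gene Hey1 was 1.28-fold higher in beta-catenin than in control cells (adjusted p = 0.0145). The homeobox gene Dlx3 (-0.08, adjusted p = 0.489) and the alkaline phosphatase gene Alpl (0.29, adjusted p = 0.11) were not called in beta-catenin cells.

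**Figure D4:**
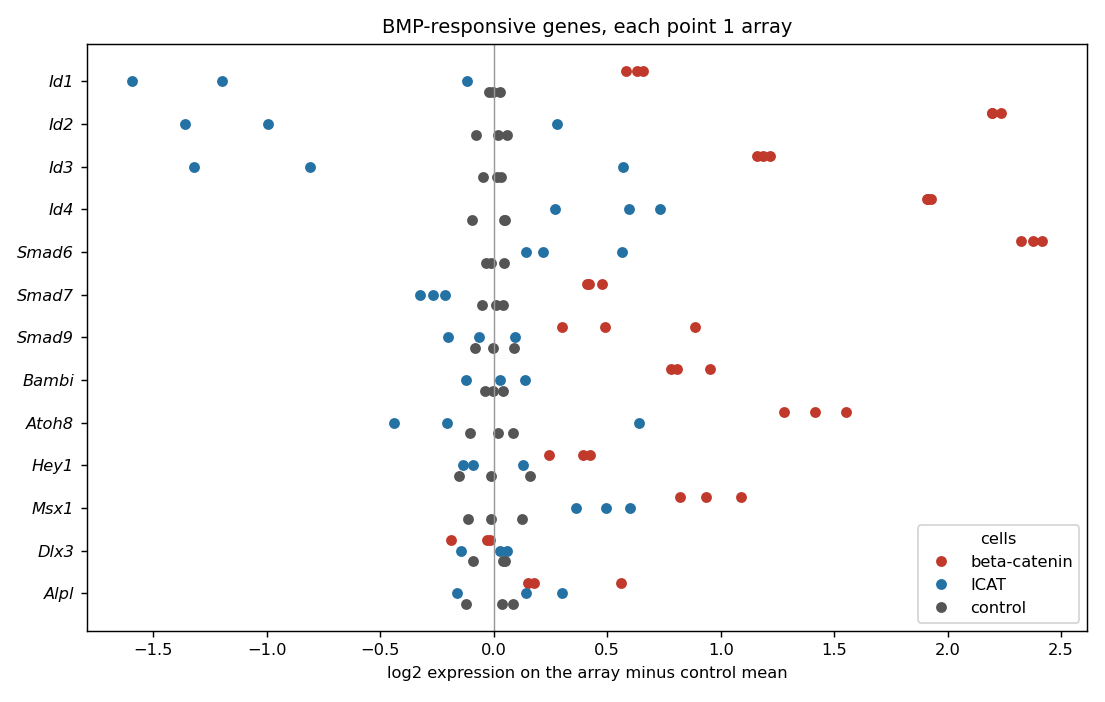
Log2 expression on each array minus the control mean for the 13 tested BMP-responsive genes, 1 point per array, in beta-catenin, ICAT and control cells. For Id2, Id3, Id4, Smad6 and Atoh8 the 3 beta-catenin points lie more than 1 above the control mean, whereas the ICAT points of Id1, Id2, Id3 and Atoh8 spread widely.

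The ICAT arrays disagreed with each other on Bmp2 and on the Id genes. Relative to the control mean, Id1 was at -0.12 on ICAT replicate 1 and at -1.59 and -1.195 on replicates 2 and 3. For Id2 replicate 1 lay 0.28 above the control mean, with replicates 2 and 3 at -1.36 and -0.99. Id3 gave 0.57, -1.32 and -0.81 on ICAT replicates 1, 2 and 3, and Atoh8 gave 0.64, -0.44 and -0.21. The 4 genes were thus highest on replicate 1 and lowest on replicate 2. Bmp2 ran the other way, with replicate 1 lowest (-2.21) and replicate 2 highest (-0.70).

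Such spread was rare among genes. The SD between ICAT arrays was 0.763 for Id1, 0.86 for Id2, 0.979 for Id3 and 0.788 for Bmp2, and an SD of at least that size was seen in 0.295, 0.171, 0.0919 and 0.263 percent of tested genes. Fst, by contrast, had an SD of 0.0406 on the same arrays, and 92 percent of genes had at least that much. Without ICAT replicate 1, Id2 and Id3 were called lower in ICAT than in control cells (-1.18 and -1.07, adjusted p = 1.14e-05 and 7.83e-05). The direction of Id2 and Id3 in ICAT cells against control differed between single arrays, while both were called lower in ICAT than in beta-catenin cells under each of 19 alternative settings. Array weights fitted across genes were 0.468, 0.799 and 0.217 for ICAT replicates 1, 2 and 3, so replicate 3 had the lowest. Some marker genes, like Bmp2 and the Id genes, set ICAT replicate 1 apart. On ICAT replicates 1, 2 and 3 the fibroblast marker Dcn read 8.16, 6.88 and 6.90, Postn 8.00, 7.07 and 7.23, Pdgfra 11.27, 10.45 and 10.07, and Pdgfrb 11.17, 10.56 and 10.38. Col1a1 was lowest on replicate 1, at 7.41 against 8.10 and 8.43, as was the keratin gene Krt18, at 7.87 against 8.92 and 8.75. The part of these markers in the spread of Bmp2 and the Id genes was not tested.

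**Figure D5:**
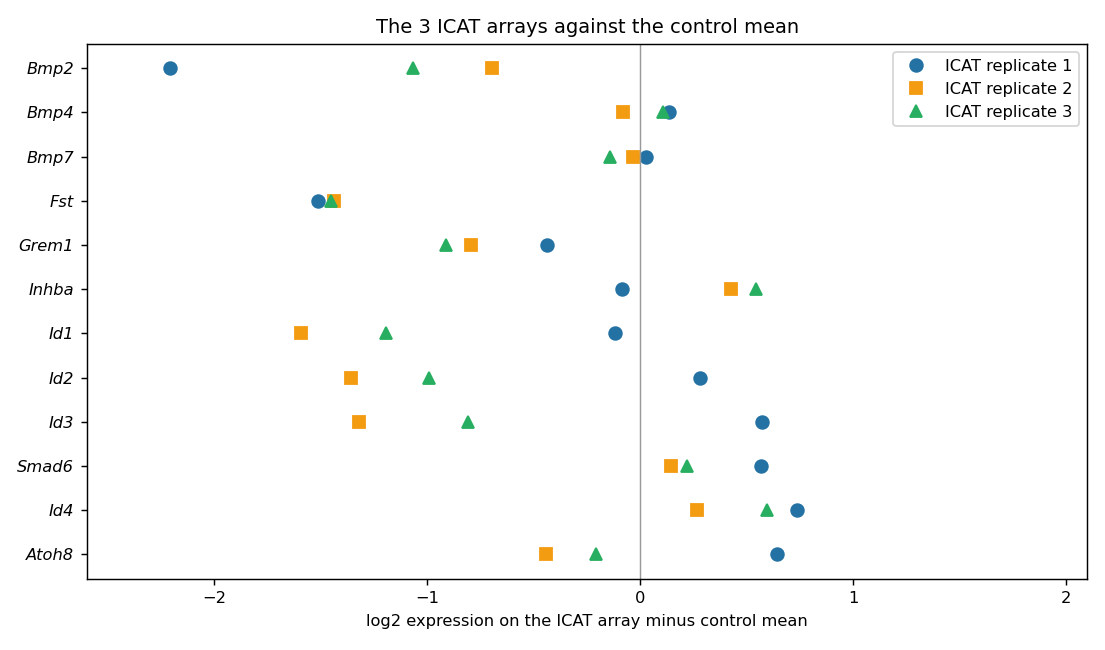
Log2 expression on each ICAT array minus the control mean for the 10 genes, Id4 and Atoh8, with 1 marker shape and colour per replicate. Replicate 1 is highest for Id1, Id2, Id3 and Atoh8 and lowest for Bmp2, while the 3 arrays coincide for Fst near -1.5.

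Receptor and co-receptor genes numbered 15 among those tested. Against control, 3 were higher and 2 lower in beta-catenin cells, with 3 higher and 1 lower in ICAT cells. These counts were no larger a share than the 34.9 and 37.2 percent of all tested genes called. Rgmb, which encodes a BMP co-receptor, was 5.12-fold lower in beta-catenin than in control cells (7.04, 7.43 and 7.27 against 9.65, 9.49 and 9.67, adjusted p = 3.25e-08) and 1.63-fold lower in ICAT than in control cells (adjusted p = 0.0004). Its 5 other probe sets were also lower in beta-catenin than in control cells (-0.45 to -1.80), but in ICAT cells 1 of the 5 passed. The type II receptor gene Bmpr2 was 1.51-fold higher in beta-catenin and 1.21-fold higher in ICAT than in control cells (adjusted p = 6.7e-05 and 0.0117), with 2 and 1 of its 3 probe sets called. Neo1, whose product binds RGM proteins, was 1.60-fold higher in beta-catenin than in control cells (adjusted p = 7.27e-06), as were 3 of its 4 tested probe sets in all. The activin type I receptor gene Acvr1b rose 1.44-fold and Rgma 1.32-fold in ICAT cells (adjusted p = 0.0004 and 0.000609), and neither was called in beta-catenin cells. The ICAT call of Acvr1b was absent from its dimmer probe set (-0.08, adjusted p = 0.642). The activin type II receptor gene Acvr2a was 1.25-fold higher in beta-catenin than in control cells (adjusted p = 0.0163), and its dimmer probe set did not pass (-0.19, adjusted p = 0.172).

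Among Smads and their regulators other than Smad6, beta-catenin cells had 4 of 13 higher and 4 lower than control, and ICAT cells 5 higher and 4 lower. The shares of all tested genes called were 34.9 percent for beta-catenin and 37.2 percent for ICAT cells. Of the Smad genes that carry the BMP signal, differences from control were 0.16 for Smad1 (adjusted p = 0.0937) and 0.15 for Smad5 (adjusted p = 0.131) in beta-catenin cells. In ICAT cells both were called higher, at 0.25 and 0.29 (adjusted p = 0.0126 and 0.00679). Smad4, whose product enters the nucleus with them, was called lower by its brightest probe set in both beta-catenin and ICAT cells. Its differences from control were -0.25 and -0.19 (adjusted p = 0.00692 and 0.0236). The co-repressor gene Skil was higher by its brightest probe set in beta-catenin and ICAT cells (0.57 and 0.43), and a dimmer one was lower in ICAT cells (-0.29, adjusted p = 0.00469). Ppm1a, which encodes a phosphatase of phosphorylated Smads, was 1.43-fold lower in beta-catenin than in control cells (adjusted p = 0.000166), with 2 of its 7 tested probe sets called lower and none higher. Smad2 fell 1.33-fold in ICAT cells by its brightest probe set (adjusted p = 0.00325), and its other one differed by -0.01. Smad3, which carries the activin signal, was 1.44-fold lower in beta-catenin than in ICAT cells (adjusted p = 0.000151), and its dimmer probe sets did not show that difference (0.01 and 0.00).

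Of the partners of the Id proteins, Tcf3, Tcf4 and Tcf12 lay above 9 on every array, while Ptf1a had a mean under 5 in every group and was not tested. By the brightest probe set, none of 7 tested genes was called in beta-catenin cells by limma at an adjusted p of 0.05. At an unadjusted p under 0.05 the count there was 0. In ICAT cells Tcf4, which encodes the E protein E2-2, rose 1.51-fold (adjusted p = 9.73e-05), Tcf12 rose 1.17-fold and Tcf3, the gene of E12 and E47, fell 1.14-fold (adjusted p = 0.0101 and 0.0489). Of the tested probe sets of Tcf4, 5 of 6 were higher in ICAT than in control cells and 2 of 6 lower in beta-catenin than in control cells. For Tcf12 1 of 5 was higher in ICAT than in control cells, and for Tcf3 1 of 3 was lower. Of 4 tested protease genes (Furin, Pcsk6, Pcsk7 and Bmp1), only Furin was called against control. It was 1.22-fold lower in beta-catenin and 1.25-fold lower in ICAT than in control cells (adjusted p = 0.00525 and 0.00308). In all, 75 further pathway genes were tested. Against control, 15 were higher and 11 lower in beta-catenin cells, with 15 higher and 8 lower in ICAT cells, to be read against the backgrounds of 34.9 and 37.2 percent called.

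Genes with the most similar pattern were sought for Bmp2, Fst and Id2, the 3 of the 10 whose group means ranged most, by the distance between their pairs of log2 differences from control. For Bmp2 the fitted values put the urea transporter gene Slc14a1, Fst and the claudin gene Cldn6 nearest, but since Bmp2 lay near the limit of 5 in beta-catenin cells these distances and their order are not measured. Cldn6 was nearest to Fst (-4.17 in beta-catenin and -1.34 in ICAT cells, distance 0.619), and among genes other than Bmp2 it was followed by the cannabinoid receptor gene Cnr1 (-3.70 and -1.37, distance 1.08). For Id2 the desmosomal plakophilin gene Pkp2 came close to the same pair of values (2.27 and -0.67, distance 0.067), ahead of the amino acid transporter gene Slc6a15 (0.597) and Mex3b (0.602).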

How the data were processed

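Total RNA of 9 cultures was extracted with Trizol and prepared with the Affymetrix 3′ IVT Express kit, per the labels' protocols. The deposited values are log2 expression. Per the submitters' processing notes, the authors used RMA and the affy package, with no version named. RMA brings all arrays to one distribution, so a shift of all genes one way would not be seen, and it compresses differences of dim probe sets.

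Of 45037 probe sets 34945 had 1 gene symbol, and symbols were updated through Entrez identifiers except for 204 probe sets without a match. A gene was represented by its brightest single-gene probe set. Genes reaching log2 5 on 3 or more arrays were tested, 15235 in all, in one limma 3.58.1 model (R 4.3.3, residual degrees of freedom 6, prior 5.03) with a mean per group, and p-values were adjusted over all of them. Other probe sets were tested in the same way over 27576 single-gene probe sets. Arrays with the same replicate number did not deviate together in every pair (correlations from -0.129 to 0.41), so no block was used.

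The members, pathway lists and markers were chosen with earlier results of these data known. Of each list up to 4 called genes per comparison with the largest change were to be named, with the transfected genes and the 3 genes nearest in pattern. Hey1, Dlx3, Alpl, Inhbb, Smad1, Smad4, Smad5, Nog and other examples without a large change were named after their values were seen. On simulated data with known changes, 18 percent of 1.2-fold and 84 percent of 1.5-fold changes were recovered for beta-catenin against control, and 12 percent of 1.2-fold and 88 percent of 1.5-fold changes for ICAT against control, each over 15235 genes. Alternatives changed the filter, the probe set, the arrays, the weights, the prior, the block or the normalization.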

Additional observations from a re-analysis of the deposited data

How the results depend on the processing

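Of the differences of the 10 genes under the alternatives, 539 kept direction and side of the threshold, 14 newly passed, 13 no longer passed and 1 reversed. The reversal was Bmp7 between beta-catenin and ICAT cells, 0.0844 with the mean of its probe sets, which include dim ones, and -0.13 with the brightest. Of the counts of called genes, that of other pathway genes between beta-catenin and control cells was 26 as reported, 46 with array weights, and 17 to 31 when 1 array was left out, 17 being the count without beta-catenin replicate 3 and also without control replicate 1. Called probe sets of the 10 genes between ICAT and control cells numbered 6, and 5 to 10 when 1 array was left out, with 10 without ICAT replicate 1. The cause was not tested. With 1 array left out, 6 to 8 of the 10 genes were called between beta-catenin and control cells, 4 to 7 between ICAT and control cells and 7 to 9 between beta-catenin and ICAT cells. The share of all genes called in those fits is not given here, so these ranges show only how the counts moved. BMP-responsive genes called higher, an analysis added after seeing the data, numbered 8 to 11 in beta-catenin and 2 to 3 in ICAT cells against control when 1 array was left out. With the replicate number as a block, 7, 5 and 7 of the 10 genes were called in the 3 comparisons, the same as without it, and 27 other pathway genes between beta-catenin and control cells. Correlations between arrays of the same number do not settle whether the numbers pair the arrays, and the block changed no call of the 10 genes. Probe sets near log2 5 are limited by background, which bounds the beta-catenin level of Bmp2.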
